A study of Mus musculus with 8 samples.

Results

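The sirtuins are a family of enzymes that remove acetyl and related acyl groups from lysines, and 6 of their genes (Sirt1, Sirt3, Sirt4, Sirt5, Sirt6 and Sirt7) were followed in mouse kidneys after cisplatin. The genes were taken by name from the 35880 genes of the count table that had 1 count for each of the 8 kidneys, and they were grouped by the place where the protein works, the nucleus (Sirt1, Sirt6, Sirt7) or the mitochondrion (Sirt3, Sirt4, Sirt5). Sirt2 stood among the 17835 rows that held 10 values in place of 8, which could not be assigned to kidneys, and was not analysed here. Bulk RNA-seq was run on kidneys of wild-type mice, male C57/BL6J animals according to the study's methods, and the age was not given. The control group received saline by intraperitoneal injection (replicates 1, 2, 3 and 5), the cisplatin group received 1 intraperitoneal dose of 23 mg/kg (replicates 1, 3, 4 and 6), and kidneys were taken 72 h later. Cisplatin is a platinum drug that crosslinks DNA and injures the kidney tubule. Usable counts summed to between 13539665 and 16201443 in the control kidneys and to between 10953338 and 16701599 in the cisplatin kidneys. Nothing in the labels says that the kidneys came from separate cages or days, so p-values measure the spread among these 8 kidneys.

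Sirtuins use NAD+ as a cosubstrate and cleave it to nicotinamide with every group they remove. The PARP and CD38 enzymes also consume NAD+. SIRT1 acts on transcription factors and coactivators, SIRT6 on chromatin and DNA repair, and SIRT7 on the nucleolus and ribosomal gene transcription. SIRT3 is the main deacetylase of mitochondrial proteins, SIRT4 modifies enzymes of amino acid and pyruvate use, and SIRT5 removes succinyl, malonyl and glutaryl groups. The proximal tubule, the segment that takes up most filtered solutes and cisplatin, is among the tissues richest in mitochondria.

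The tissue and treatment labels were checked on marker genes before the sirtuins were read. All 20 proximal tubule markers were detected, and the injury markers Lcn2 (a secreted iron-carrier protein) and Havcr1 (KIM-1, a receptor of injured tubule cells) rose by 9.23 and 8.27 on the log2 scale. The 8 libraries differed in 2 further ways that the labels do not give. The second principal component of the gene levels, holding 15.96% of the variance against 73.55% for the first, separated control 5, cisplatin 4 and cisplatin 6 from the other 5 libraries, here named the second library set, the other 5 being the first. Cisplatin 1 and cisplatin 3 were also nearly without counts of the Y-linked genes Kdm5d (2 and 0 counts) and Eif2s3y (3 and 0 counts), while each of the other 6 libraries held at least 274 and 541. Values without cisplatin 1 and 3, and within the first library set, are therefore given beside the results. The only cisplatin kidneys of the first set are replicates 1 and 3, so values within it rest on the libraries nearly without Y-linked counts. Without cisplatin 1 and 3, all cisplatin kidneys belong to the second set. Neither kind of value is thus free of both differences.

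Cisplatin was followed by lower transcript levels of all 3 mitochondrial sirtuins and by a higher level of Sirt6. Of the 6 genes, 1 rose and 3 fell at an adjusted p under 0.05 (edgeR quasi-likelihood test, Benjamini-Hochberg over 9141 genes). The background was broad, with 26.4% of all genes tested passing as higher and 22.6% as lower. Sirt3 was the only member that also passed a log2 fold change of 1 in size, a rule that 15.7% of genes met as lower and 19.2% as higher. Sirt1 and Sirt7 did not pass the threshold. In whole kidney, fewer cells of a type and less RNA per cell cannot be told apart.

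**Figure D1:**
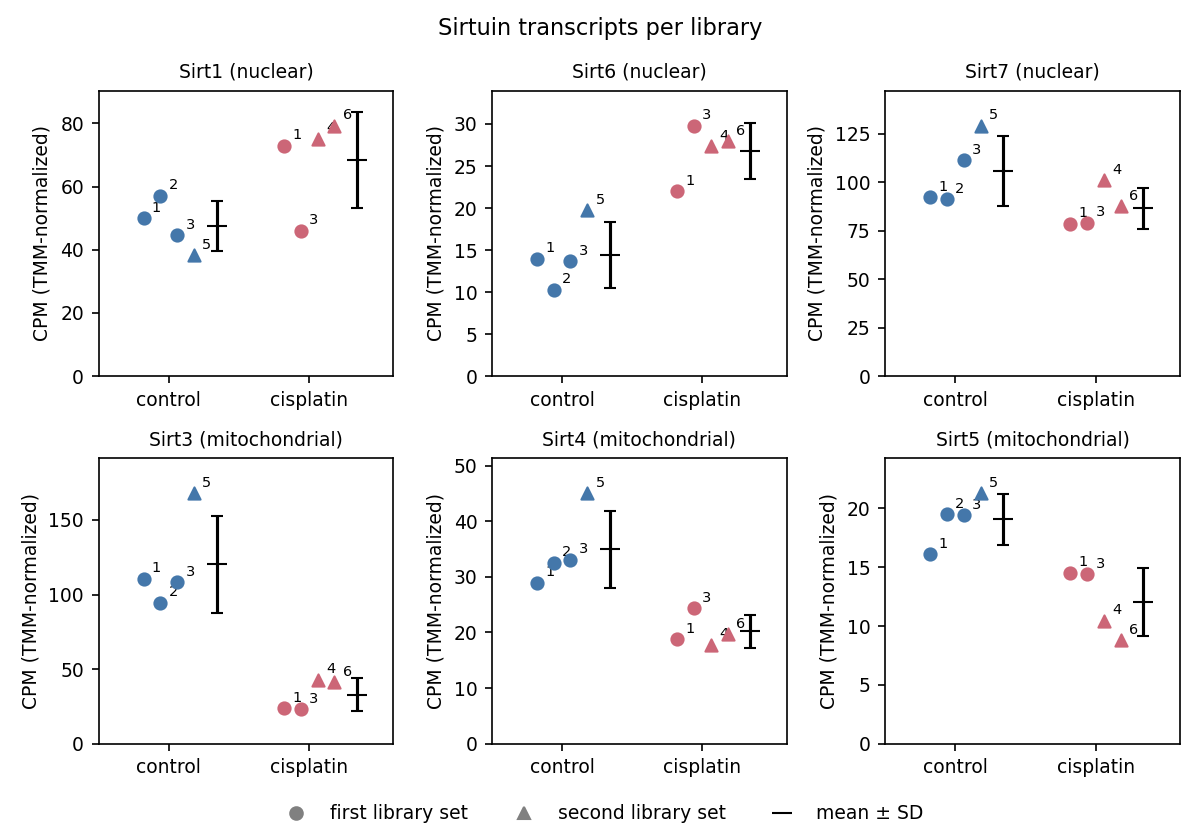
Normalized level (CPM after TMM scaling, linear axis from 0) of each sirtuin gene in 4 control and 4 cisplatin kidneys, with the replicate number beside each point, circles and triangles for the first and second library set, and black bars for the mean ± SD. Sirt3, Sirt4 and Sirt5 lie lower in every cisplatin kidney than in any control, Sirt6 lies higher in every cisplatin kidney, and Sirt1 and Sirt7 overlap.

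Sirt3 encodes the main mitochondrial deacetylase, and its gene lies on the minus strand of chromosome 7 (GRCm38, chr7:140863666-140882309). Levels are given in CPM, the count scaled to a common library size after TMM normalization. The level of Sirt3 was 111, 94.6, 108 and 168 CPM in control 1, 2, 3 and 5, and 23.7, 23.04, 43.0 and 41.5 CPM in cisplatin 1, 3, 4 and 6. The groups were far apart, and within the cisplatin group replicates 1 and 3 were the lowest while control 5 was the highest of all 8 kidneys. The mean went from 120.4 ± 32.5 to 32.8 ± 10.9 CPM (SD, n = 4 each), which as a log2 fold change is -1.88 (SE 0.274, 95% interval -2.49 to -1.27, edgeR adjusted p = 0.000424). An exact two-sided permutation test of the log2 levels gave p = 0.0286, the smallest that 4 against 4 kidneys can give. Any gene whose groups do not overlap has this value, so it restates the separation. Only 7.34% of the genes tested had a lower fold change. Without cisplatin 1 and 3 the log2 fold change was -1.50 (edgeR adjusted p = 0.00124), and within the first library set, 3 controls against 2 cisplatin kidneys, it was -2.22 (edgeR adjusted p = 4.41e-06).

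Sirt4 encodes a mitochondrial sirtuin with weak deacetylase activity (GRCm38, chr5:115478010-115484725, minus strand). Its level was 29.0, 32.5, 33.1 and 45.1 CPM in control 1, 2, 3 and 5, and 18.7, 24.4, 17.8 and 19.7 CPM in cisplatin 1, 3, 4 and 6. All cisplatin kidneys were below all controls, the closest pair being cisplatin 3 and control 1. The mean went from 34.9 ± 7.01 to 20.2 ± 2.94 CPM (SD, n = 4 each), and the log2 fold change was -0.79 (SE 0.190, 95% interval -1.21 to -0.37, edgeR adjusted p = 0.00679). The exact permutation test again gave p = 0.0286. The value was -0.89 without cisplatin 1 and 3 and -0.60 within the first library set, each past the threshold.

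Sirt5 encodes the mitochondrial desuccinylase (GRCm38, chr13:43365496-43395203, plus strand). Its level was 16.1, 19.5, 19.4 and 21.3 CPM in control 1, 2, 3 and 5, and 14.6, 14.4, 10.5 and 8.80 CPM in cisplatin 1, 3, 4 and 6. Here cisplatin 4 and 6 were the lowest, unlike for Sirt3, and cisplatin 1 and 3 came close to control 1 without reaching it. The mean went from 19.1 ± 2.17 to 12.1 ± 2.88 CPM (SD, n = 4 each), and the log2 fold change was -0.66 (SE 0.212, 95% interval -1.13 to -0.19, edgeR adjusted p = 0.0268, exact permutation p = 0.0286). The call held under 12 of 22 alternatives, and it was lost when control 2, control 3, control 5, cisplatin 4 or cisplatin 6 was left out alone (log2 fold change -0.78 to -0.54 over the 8 fits without 1 library). Within the first library set the log2 fold change was -0.40 (edgeR adjusted p = 0.0519), and with cisplatin 4 and 6 left out it was -0.44 (edgeR adjusted p = 0.0743), while without cisplatin 1 and 3 it was -0.98.

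Sirt6 encodes a nuclear sirtuin of chromatin and DNA double-strand break repair (GRCm38, chr10:81621785-81627797, minus strand). Its level was 13.99, 10.3, 13.7 and 19.7 CPM in control 1, 2, 3 and 5, and 22.01, 29.8, 27.4 and 28.0 CPM in cisplatin 1, 3, 4 and 6. All cisplatin kidneys exceeded all controls, with control 5 and cisplatin 1 the closest pair. The mean went from 14.4 ± 3.92 to 26.8 ± 3.35 CPM (SD, n = 4 each), which as a log2 fold change is 0.89 (SE 0.219, 95% interval 0.40 to 1.38, edgeR adjusted p = 0.00764, exact permutation p = 0.0286). It was 0.95 without cisplatin 1 and 3 and 0.98 within the first library set, both past the threshold. Among the genes tested, 76.4% had a lower fold change than Sirt6, so the rise was within the common range in these kidneys.

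Sirt1 encodes the nuclear deacetylase after which the study names its pathway. It had 50.1, 57.1, 44.5 and 38.4 CPM in control 1, 2, 3 and 5, and 73.0, 46.1, 75.2 and 79.3 CPM in cisplatin 1, 3, 4 and 6. In 3 cisplatin kidneys the level was above every control, and cisplatin 3 lay inside the control range. The mean was 47.5 ± 7.99 CPM in the control and 68.4 ± 15.1 CPM in the cisplatin group (SD, n = 4 each), with a log2 fold change of 0.52 (SE 0.203, 95% interval 0.07 to 0.98). The value missed the threshold narrowly (edgeR adjusted p = 0.0557, exact permutation p = 0.0857). Of the single libraries, only leaving out cisplatin 3 changed the call, to a log2 fold change of 0.66 (edgeR adjusted p = 0.0132), and 3 other settings with all kidneys also passed. Within the first set the log2 fold change was 0.17 (edgeR adjusted p = 0.483), and with cisplatin 1 and 3 left out, which sets 2 kidneys of the second set against controls of both, it was 0.70 (edgeR adjusted p = 0.0124). The second set, with 1 control, allows no test of its own.

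Sirt7 encodes the nucleolar sirtuin (GRCm38, chr11:120618372-120625240, minus strand). It had 92.3, 91.1, 111 and 129 CPM in control 1, 2, 3 and 5, and 78.6, 79.1, 101 and 87.5 CPM in cisplatin 1, 3, 4 and 6. Only cisplatin 4 lay inside the control range. The mean was 105.9 ± 17.99 CPM in the control and 86.6 ± 10.5 CPM in the cisplatin group (SD, n = 4 each), and the log2 fold change was -0.29 (SE 0.162, 95% interval -0.65 to 0.07, edgeR adjusted p = 0.163, exact permutation p = 0.114). In both library sets the cisplatin kidneys were below the controls of the same set. With the set as a term the log2 fold change was -0.37 (edgeR adjusted p = 0.0146), and within the first set alone, whose cisplatin kidneys are replicates 1 and 3, it was -0.37 (edgeR adjusted p = 0.0283). Without cisplatin 1 and 3 it was -0.16 (edgeR adjusted p = 0.465). The sets were drawn from the gene levels of these same libraries, so p-values of fits that use them can come out too small. With the set as a term, 2936 genes passed as higher and 2628 as lower, against 2416 and 2069 without it.

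For separation between groups, Sirt6 had all 4 cisplatin kidneys above all 4 controls, as did 23.7% of the genes tested, and Sirt3, Sirt4 and Sirt5 had all 4 below, as did 22.5%. The size of the smaller changes, and the directions of Sirt7 and of the summed level of the 6 genes, depended on how the libraries were scaled. With total library size in place of TMM, the median log2 fold change of all genes moved from 0.08 to 0.64, and the calls moved from 2416 higher and 2069 lower to 4365 higher and 1084 lower. Sirt3 was then at -1.33 and Sirt6 at 1.46, both past the threshold, but Sirt4 was at -0.22 (edgeR adjusted p = 0.347) and Sirt5 at -0.08 (edgeR adjusted p = 0.791). Sirt7 turned to 0.27 and Sirt1 to 1.08, the latter past the threshold (edgeR adjusted p = 0.0017). A change of scaling shifts all genes by nearly the same amount, so relative to the median gene under TMM, Sirt3 was at -1.96, Sirt4 at -0.87, Sirt5 at -0.74, Sirt7 at -0.37, Sirt1 at 0.45 and Sirt6 at 0.81, and nearly the same values follow by construction under total library size.

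**Figure D2:**
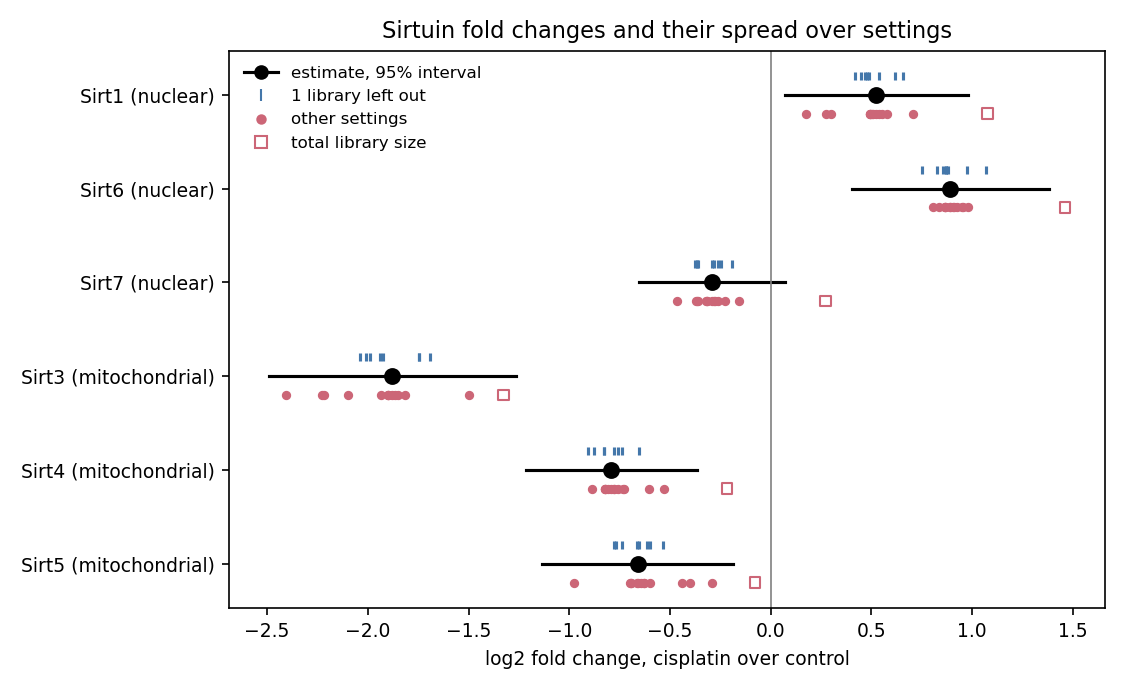
Log2 fold change of cisplatin over control for the 6 sirtuin genes (x axis), as the estimate from all 8 kidneys with its 95% interval (black), with 1 library left out (blue ticks) and under the other settings (red points, with an open square for scaling to total library size). Sirt3 stays between -2.40 and -1.33 and Sirt6 between 0.75 and 1.46, whereas Sirt7 lies on both sides of 0.

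Levels were compared between genes only per length, as CPM per kilobase of the gene length in the table. That length covers the exons of all annotated transcripts of a gene together, and the transcripts present in these kidneys can be shorter. For Sirt1 it is 5331 bases, while its longest annotated transcript has 4430. The order of genes depends on these lengths. In control kidneys Sirt7 and Sirt3 were the most abundant at 20.6 and 20.2 CPM per kilobase, followed by Sirt4 at 14.6, Sirt1 at 8.92, Sirt6 at 5.18 and Sirt5 at 3.13. The ranges of Sirt7 and Sirt3 and of Sirt3 and Sirt4 overlapped, and those of the other neighbours in this order did not. In cisplatin kidneys the order was Sirt7 at 16.8, Sirt1 at 12.8, Sirt6 at 9.62, Sirt4 at 8.41, Sirt3 at 5.49 and Sirt5 at 1.98 CPM per kilobase. Sirt3 thus moved from the second place to the fifth, and only Sirt1 and Sirt6, and Sirt6 and Sirt4, overlapped as neighbours.

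As a share of the summed level per length of the 6 genes, the 3 mitochondrial sirtuins made up 51.9% ± 2.88 in the control and 28.9% ± 2.19 in the cisplatin kidneys (SD, n = 4 each). The control kidneys ran from 50.2% to 56.2% and the cisplatin kidneys from 27.3% to 32.1%. Sirt3 went from 27.5% to 9.80% of the sum, Sirt1 from 12.7% to 23.2% and Sirt6 from 7.08% to 17.5%, while Sirt7 stood at 28.4% and 30.5%. Sirt4 stood at 20% and 15.4% and Sirt5 at 4.36% and 3.66%, both with overlap between the groups, so most of the lower mitochondrial share was that of Sirt3. The sum itself was 72.5 ± 11.7 CPM per kilobase in the control and 55.2 ± 4.74 in the cisplatin kidneys under TMM, and this order turned with total library size (59.5 ± 7.44 and 66.9 ± 2.18, with overlap). A share within a kidney is not affected by library scaling, but it rises for a gene when another member falls. Its size also depends on the gene lengths used. The mean log2(CPM + 1) of the mitochondrial members minus that of the nuclear ones, which is not per length and is read only between groups, was 0.04 ± 0.14 in the control and -1.41 ± 0.15 in the cisplatin kidneys.

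**Figure D3:**
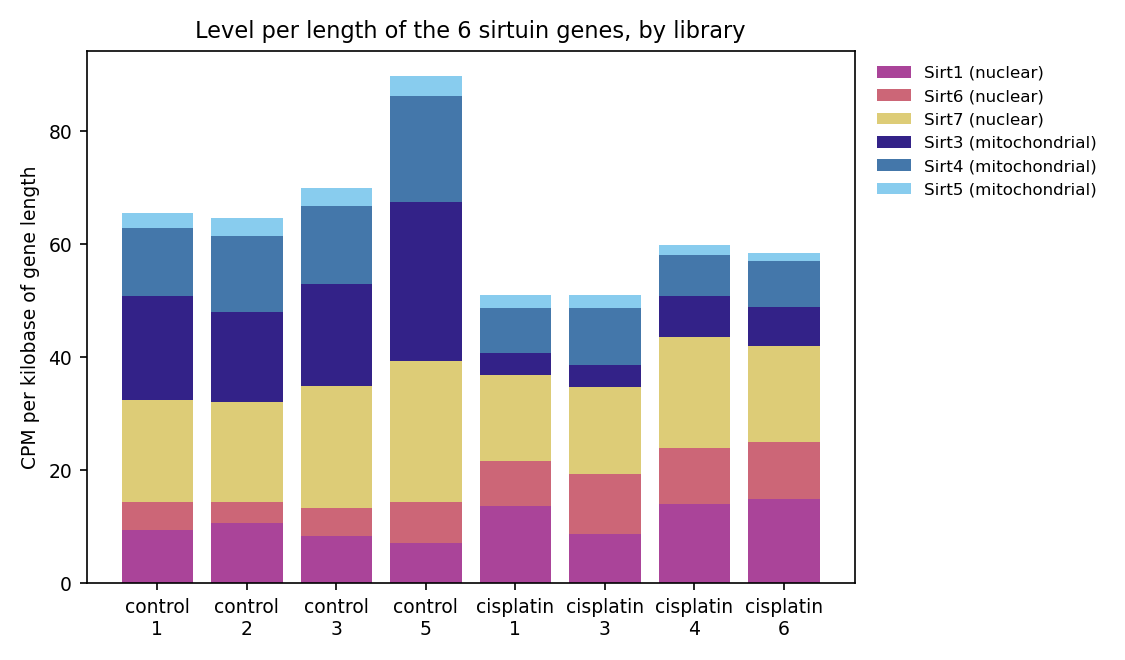
Level per length (CPM per kilobase of gene length, linear axis from 0) of the 6 sirtuin genes, stacked for each of the 8 kidneys, with nuclear members below in warm colours and mitochondrial members above in blue. The blue part is 50.2% to 56.2% of the bar in control kidneys and 27.3% to 32.1% in cisplatin kidneys.

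Ratios between members within a kidney do not depend on the scaling of the libraries, and they are given per length as log2 ratios. Among the mitochondrial members, Sirt3 to Sirt4 went from 0.45 ± 0.18 in the control to -0.67 ± 0.63 in the cisplatin kidneys (SD, n = 4 each) and Sirt3 to Sirt5 from 2.66 ± 0.31 to 1.44 ± 0.84, both without overlap between the groups. Sirt4 to Sirt5 was 2.20 ± 0.16 and 2.11 ± 0.33, with overlap. Sirt3 thus changed its ratio to both other mitochondrial members. Among the nuclear members, Sirt6 to Sirt7 went from -2.01 ± 0.22 to -0.81 ± 0.22, without overlap, while Sirt1 to Sirt6 (0.81 ± 0.62 and 0.39 ± 0.48) and Sirt1 to Sirt7 (-1.21 ± 0.48 and -0.41 ± 0.31) overlapped. Across compartments the ratio of Sirt6 to Sirt3 moved most of the 15 pairs, from -1.96 ± 0.10 to 0.86 ± 0.47, whereas the groups overlapped for Sirt7 to Sirt4 (0.50 ± 0.13 and 1.002 ± 0.33) and for Sirt7 to Sirt5 (2.71 ± 0.17 and 3.11 ± 0.49). Raw counts behind these ratios ran from 111 for Sirt5 in cisplatin 6 to 2137 for Sirt3 in control 5.

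Proximal tubule transcripts fell in the same kidneys as Sirt3. All 20 proximal tubule markers fell, with a median log2 fold change of -4.03 against 0.08 over all genes tested. Their summed level was 85010, 77100, 85160 and 97130 CPM in control 1, 2, 3 and 5, and 2232, 1832, 10330 and 16300 CPM in cisplatin 1, 3, 4 and 6, and the most abundant marker was Kap, an androgen-regulated tubule protein, with a mean of 32280 CPM in controls and 4504 CPM after cisplatin. Kap made up 24.4%, 12.5%, 60.2% and 67.6% of the sum in cisplatin 1, 3, 4 and 6, and without it the sums of the other 19 markers were 47400 to 62060 CPM in control and 1688, 1603, 4105 and 5278 CPM in cisplatin kidneys. Cisplatin 1 and 3, the lowest in either sum, were also the lowest in Sirt3, and control 5 was the highest in both. This order within the groups is also the split between the library sets, and cisplatin 1 and 3 are the libraries nearly without Y-linked counts, so these cannot be told apart. Sirt5 did not follow the same order within the cisplatin group, and Sirt6 was higher after cisplatin. The part that the loss of tubule transcripts has in the sirtuin values was not tested.

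**Figure D4:**
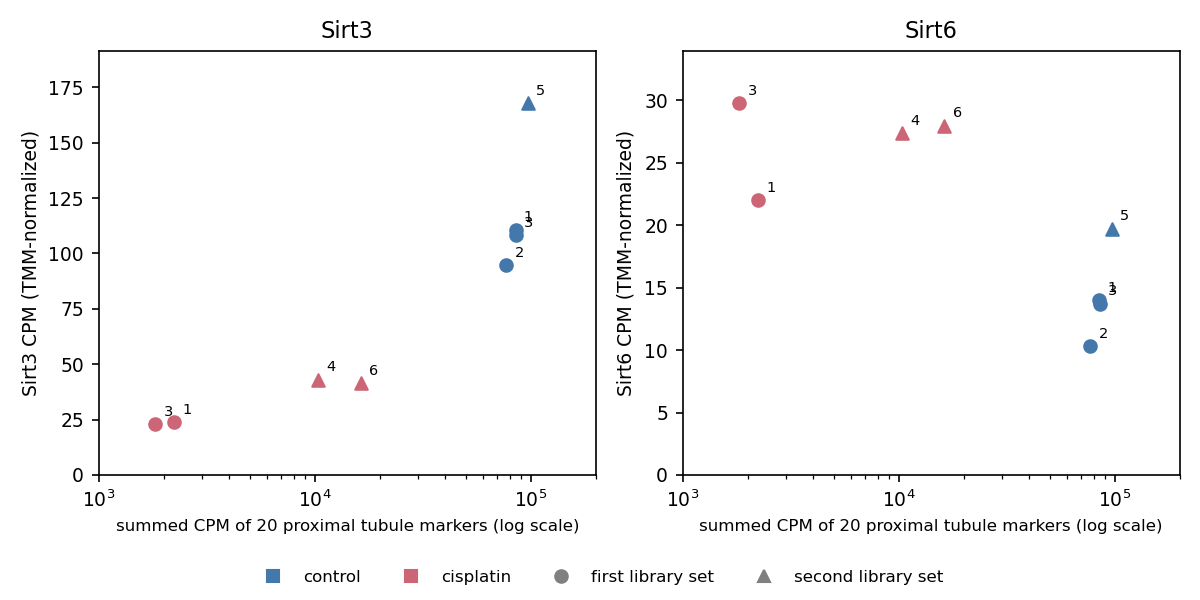
Sirt3 (left) and Sirt6 (right) levels in CPM on a linear axis against the summed CPM of 20 proximal tubule markers on a log axis, 1 point for each of 8 kidneys with its replicate number, blue for control and red for cisplatin, circles and triangles for the first and second library set. Cisplatin 1 and 3 have the lowest marker sums, 2232 and 1832 CPM, and the lowest Sirt3.

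Markers of other cells were read beside the 26.4% higher and 22.6% lower of all genes tested. Of 10 injured tubule markers 9 rose, with a median log2 fold change of 4.403, and their summed level was 1589 to 1835 CPM in control and 17520 to 39000 CPM in cisplatin kidneys, led by Spp1 (osteopontin). Of 20 leukocyte markers 11 had usable counts and 10 were tested, of which 5 rose and 1 fell, and their summed level overlapped, at 150 to 203 CPM and 102 to 223 CPM, led by Laptm5. Of 8 fibroblast markers 5 were tested and 3 rose, with a sum of 72.4 to 259 CPM in control and 343 to 1586 CPM in cisplatin kidneys, led by Col1a2. Of 16 thick limb, distal and collecting duct markers 12 were tested, 2 rose and 4 fell, with sums of 8359 to 12830 CPM in control and 1249 to 6018 CPM in cisplatin kidneys, led by Umod (uromodulin). Of 10 endothelial markers 5 were tested and 1 fell (499 to 738 and 271 to 639 CPM, led by Plvap), and of 6 podocyte markers 3 were tested and none passed (367 to 730 and 402 to 621 CPM, led by Podxl). No marker with usable counts in these lists stayed at 3 counts or fewer in all 8 kidneys. The share of these cells in the sirtuin values was not tested.

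Most of the tested partners of the mitochondrial sirtuins fell. A list of 44 reported partners and substrates of SIRT3, SIRT4 and SIRT5 had 32 genes tested, of which 22 fell, beside 22.6% of all genes tested, 1 rose and 9 did not pass, with a median log2 fold change of -1.17. The largest falls were of Ak4, a mitochondrial adenylate kinase, at -3.96 (SE 0.270, edgeR adjusted p = 5.73e-06), of Acat1, the acetoacetyl-CoA thiolase of ketone and isoleucine breakdown, at -3.57, and of Pcx, pyruvate carboxylase, at -3.17. The single rise was of Pdp1, the phosphatase that activates pyruvate dehydrogenase, at 1.18 (SE 0.234, edgeR adjusted p = 0.00244). A pair of well-known SIRT3 substrates, named here after their values were seen, are the superoxide dismutase Sod2 at -1.74 and the isocitrate dehydrogenase Idh2 at -1.94, and Glud1, a target of SIRT4, was at -0.32 (edgeR adjusted p = 0.146). Many of these enzymes are abundant in the proximal tubule, and their changes are not a readout of sirtuin activity.

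Of 32 genes of mitochondrial maintenance 18 were tested, 10 fell, beside 22.6% of all genes tested, and none rose, with a median of -0.60. They were led by Hspd1 (a mitochondrial chaperonin) at -1.69, Ppargc1a (the coactivator of mitochondrial biogenesis and itself a SIRT1 substrate) at -1.48 and Uqcrc2 (a subunit of respiratory complex III) at -1.35. The 22 transcripts of the mitochondrial genome that were counted took 17.9%, 18.8%, 18.3% and 13.7% of the counts in control 1, 2, 3 and 5, and 8.95%, 12.1%, 14% and 13.8% in cisplatin 1, 3, 4 and 6. Control 5, with the highest Sirt3, had the lowest mitochondrial share of the controls, so among controls this share and Sirt3 did not follow the same order. Within the cisplatin group, replicates 1 and 3 were the lowest in both. After TMM scaling the summed level of these transcripts was 174800 to 223200 CPM in control and 67970 to 121300 CPM in cisplatin kidneys, without overlap. Among them the ribosomal RNA mt-Rnr2 was at 1131 CPM in control 5 and at 7690 to 11283 CPM in the other controls. Control 5 is the only control of the second library set, so its lower share cannot be told apart from the set.

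Among 44 partners of the nuclear sirtuins 17 were tested, 5 rose, 4 fell and 8 did not pass, near the 26.4% and 22.6% of all genes tested, with a median of 0.004 on the log2 scale. Those that rose most were Nfe2l2 (NRF2, the activator of antioxidant genes) at 1.17, Elk4 (an ETS transcription factor that recruits SIRT7) at 1.008 and Gabpb1 (a subunit of the GABP factor that SIRT7 deacetylates) at 0.88. Those that fell most were Prkdc (the catalytic subunit of DNA-dependent protein kinase) at -1.57, Ppargc1a and Foxo4 (a forkhead factor) at -0.65. For the upstream side, 6 of 20 regulators of SIRT1 were tested, and Cdk1, a mitotic kinase that phosphorylates SIRT1, rose by 1.88 (SE 0.521, edgeR adjusted p = 0.0138) from a mean of 2 to 7.39 CPM. Cul4b, a ubiquitin ligase scaffold, fell by 0.40 (SE 0.152, edgeR adjusted p = 0.0498). Ppara was at -0.81, Ctbp1 at -0.11, Set at 0.29 and Ccnb1 at 1.51, none past the threshold. Of the listed names, 27 of the 44 partners and 14 of the 20 regulators had rows with 10 values, which were not used.

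The next list held genes that make or import NAD+ and its precursors, together with a few that clear or salvage nicotinamide forms. Of 27 listed, 10 were tested, 5 fell and 3 rose, beside 22.6% lower and 26.4% higher of all genes tested, with a median of -0.75. The amidating and adenylylating enzymes Nadsyn1 and Nmnat1 were at -1.60 and -1.55, Naprt, which starts NAD+ synthesis from nicotinic acid, at -1.29, the tryptophan-degrading enzyme Ido2 at -3.08 and the transporter Slc22a13 at -2.09. Pnp, a nucleoside phosphorylase, rose by 1.39, and the nicotinamide-clearing enzymes Aox1 and Nnmt rose by 1.42 and 2.75 from low levels, Nnmt from a mean of 0.53 to one of 3.59 CPM. Nadk was at 0.16 and Slc25a32 at -0.21, neither past the threshold. Of 22 other consumers of NAD+ 10 were tested, 4 rose, beside 26.4% of all genes tested, and none fell, namely Bst1, an ADP-ribosyl cyclase, at 2.13, and the ADP-ribosyltransferases Parp10 at 1.40, Parp6 at 0.74 and Parp3 at 0.60. Of 11 zinc-dependent deacetylases, which need no NAD+, 4 were tested and only Hdac11 passed, at -0.88 (SE 0.210, edgeR adjusted p = 0.00654), while Hdac1 was at 0.04, Hdac10 at -0.29 and Hdac9 at -1.20. Rows with 10 values, which were not used, held 18 of the 27, 12 of the 22 and 7 of the 11 listed names. For most untested genes the level is thus unknown, and not low.

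**Figure D5:**
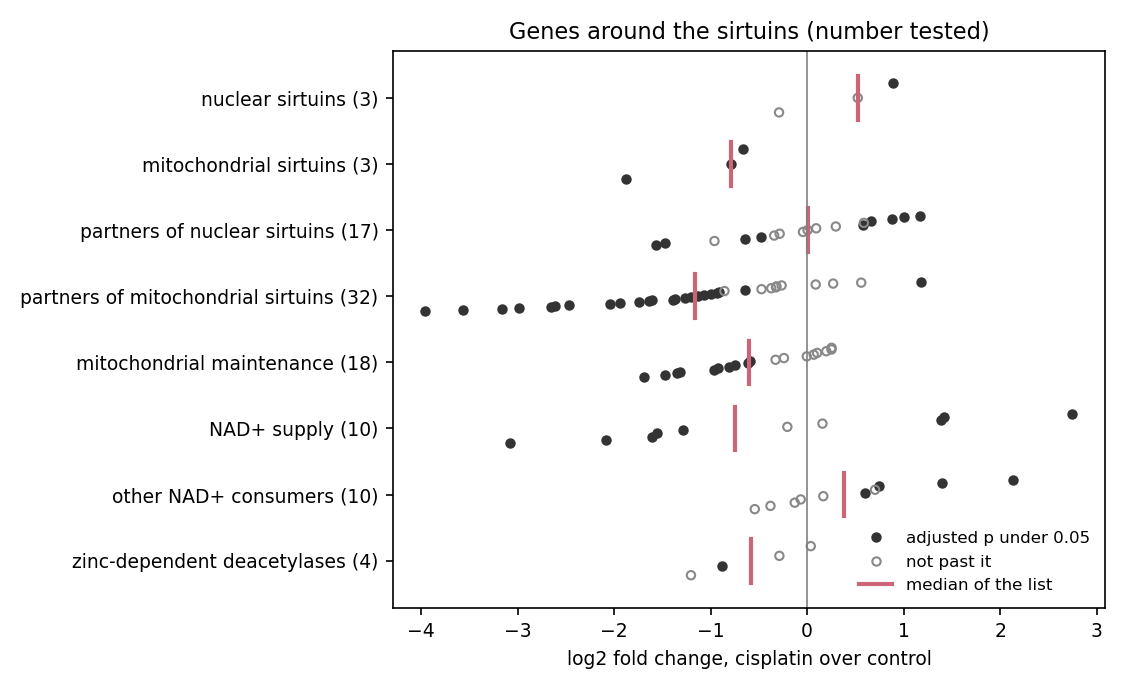
Log2 fold change of cisplatin over control (x axis) for each tested gene of 8 lists around the sirtuins, with the number tested in brackets, filled points for an adjusted p under 0.05, open points for the others, and a red bar at the median of the list. The median lies at -1.17 for partners of the mitochondrial sirtuins and near 0 for partners of the nuclear ones.

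For each sirtuin the genes with the most similar pattern over the 8 kidneys were listed, by the root mean square difference of centred log2 levels among 8796 genes. Sirt3 was closest to Gabarapl1 (an autophagy protein of the ATG8 family, 0.128), Nipsnap1 (a mitochondrial protein, 0.131) and Scp2 (a peroxisomal sterol carrier, 0.137), against a median of 1.10 over all genes. Sirt4 was closest to Atp2a2, the calcium pump of the endoplasmic reticulum, at 0.0861, then Bahcc1. Sirt5 was closest to Ptch1, the Hedgehog receptor, at 0.0672, then Zfp563 and Map4k1. Among the nuclear members, Sirt1 was closest to the zinc finger gene Zfp958 at 0.0803, then Trmt6 and Nasp, Sirt6 to the adaptor subunit gene Ap1s1 at 0.113, then Tgif2 and Taf1c, and Sirt7 to the exosome subunit gene Exosc7 at 0.0751, then Kansl3 and Gpi1. The medians over all genes were 0.628 for Sirt4, 0.602 for Sirt5, 0.587 for Sirt1, 0.646 for Sirt6 and 0.533 for Sirt7. These are descriptions of likeness in 8 kidneys that share their libraries and treatment. The named genes were picked as the closest, so their distances lie below the median by construction.

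Several sirtuin genes overlap or adjoin other genes, and the strand setting of the counting was not given in the sources used here. The exons of Sirt3 share 418 bases (7% of its length) with Ric8a and 342 bases (5.73%) with Psmd13, both on the opposite strand and both among the rows that were not used. Sirt7 shares 124 bases (2.41%) with Mafg on its own strand and holds the 54 bases of Mir6936. Sirt1 shares 65 bases (1.22%) with the antisense gene Gm16145. Reads from these stretches could be counted for either gene, and how many such reads entered the sirtuin counts was not tested. Of the neighbours within 2000 bases that were tested, Dnajc12, a cochaperone gene 739 bases from Sirt1, was at -3.80 (SE 0.333, edgeR adjusted p = 2.37e-05), opposite in sign to Sirt1. Ankrd24, 743 bases from Sirt6, was at -0.74 (SE 0.221, edgeR adjusted p = 0.0195), opposite in sign to Sirt6, and BC025920, 1082 bases from it, was at 0.43 (SE 0.290, edgeR adjusted p = 0.241). Sirt4 and Sirt5 had no gene this close.

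The Sirt1 gene (GRCm38, chr10:63319005-63381704, minus strand) is annotated with 7 transcripts, and its far end is due to a single one of them, Sirt1-203. The study measured Sirt1 by quantitative PCR as well, with a primer pair shown here to place that assay beside the gene count. The pair gives a product of 202 bases that spans chr10:63331834-63335773 and reads across 1 exon junction, and it matches 6 of the 7 transcripts. Both primers lie in coding sequence in the 4 protein-coding transcripts.
Sirt1 forward: atgacgctgtggcagattgtt
Sirt1 reverse: ccgcaaggcgagcatagat

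The upstream sequences were searched for a few letters because the nuclear members did not move together and the ETS factor gene Elk4 was among the genes that rose. RefSeq start sites (GRCm38.p6) were found for all 6 sirtuins, and the 250 bases before each start were searched on both strands for the E-box CACGTG, the ETS core CCGGAAG and the GC box GGGCGG. Among 27025 genes with such windows, 6.86% held the E-box, 7.83% the ETS core and 35.4% the GC box, and the GC box was upstream of 5 of the 6 sirtuins, all but Sirt4. Sirt1 was the only member with E-boxes and had 2, starting 115 and 43 bases before its start. Its window is shown without the 15 bases next to the start that Sirt1-203 places in an exon (chr10:63339051-63339285, minus strand, E-boxes in capitals).
Sirt1 upstream: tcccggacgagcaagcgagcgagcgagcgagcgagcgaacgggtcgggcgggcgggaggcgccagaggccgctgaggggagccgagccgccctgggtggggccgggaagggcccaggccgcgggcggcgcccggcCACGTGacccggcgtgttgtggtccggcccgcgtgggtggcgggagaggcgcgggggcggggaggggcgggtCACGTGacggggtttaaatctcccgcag

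The ETS core was found upstream of Sirt3, which fell, and of Sirt6, which rose, among others. A 30-base stretch around each is shown on the strand of the gene, with the ETS core or its reverse complement in capitals, at chr7:140882376-140882405 for Sirt3 and chr10:81627583-81627612 for Sirt6. Sirt3 and Sirt6 each have 2 RefSeq starts, and the core starts 85 bases before the outer start of Sirt3 and 35 before that of Sirt6, while the windows of their inner starts hold the GC box and no core. The Sirt3 stretch lies inside the Psmd13 gene on the opposite strand, and the Sirt6 stretch inside the GENCODE span of Sirt6, upstream of the outer RefSeq start. A match is a description of the letters and says nothing about binding.
Sirt3 upstream: gtgctcgctcaCTTCCGGcaccgcgggcgc
Sirt6 upstream: tcccttcaccaCTTCCGGcggaagcggcct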

How the data were processed

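Poly(A) RNA of 8 whole kidneys was sequenced. The study's methods name a GEXSCOPE library kit and the sample labels a VAHTS Universal V8 kit, so the kit used is not settled. The authors' notes name fastp and HISAT2 with GRCm38. The counting tool and its strand setting were not given in the sources used here. The authors deposited raw read counts per gene, with no normalization. Of 53715 rows, 17835 (33.2%) held 10 values for 8 named libraries and were left out, with 2 unnamed value columns, and no other values were used. Most listed genes that were not tested had rows of this kind. Library totals were 10953338 to 16701599 counts, so 3 counts corresponded to 0.136 to 0.266 CPM after TMM scaling.

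Genes kept by filterByExpr (9141) were scaled by TMM and tested with the edgeR 4.0.16 quasi-likelihood test (R 4.3.3), cisplatin against control, with Benjamini-Hochberg adjustment over all of them and a threshold of 0.05. DESeq2 1.42.0, limma-voom (limma 3.58.1), other scalings and filters, a replicate block, the library set and left-out libraries were alternatives. Single genes had an exact permutation test (SciPy 1.17.1). No sample was dropped or imputed. The smallest chi-square per gene between replicates was 15.99, so no library was a duplicate.

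The members, gene lists and tests were chosen with earlier results of these data known. Named genes were the sirtuins, Lcn2 and Havcr1, all tested SIRT1 regulators, NAD+ supply genes and zinc-dependent deacetylases, up to 3 genes per direction from other lists, neighbours within 2000 bases and the 3 genes most like each member. Parp3, Sod2, Idh2, Glud1, the Y-linked genes and the mitochondrial transcripts were added after their values were seen, as was leaving out 2 cisplatin libraries together. A gene among those most like Sirt4 and the ETS search of Sirt7 are not reported here.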

Additional observations from a re-analysis of the deposited data

How the results depend on the processing

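Sirt3 and Sirt6 kept their direction and passed the threshold under all 22 alternatives, Sirt4 under 21 of 22 and Sirt5 under 12 of 22. With total library size, Sirt1 was at 1.08 (now past the threshold), Sirt7 reversed to 0.27, Sirt4 was at -0.22 and Sirt5 at -0.078 (both no longer past), and 2 members passed as higher and 1 as lower, beside 4365 higher and 1084 lower of all genes. Under this scaling the level per kilobase of all 6 members was lower than with TMM in controls and higher than with TMM after cisplatin, and the values that moved by over 1 SD were 7.37 for Sirt1, 16.9 for Sirt7 and 2.58 for Sirt5 in controls, and 11.7 for Sirt6, 20.4 for Sirt7 and 10.3 for Sirt4 after cisplatin. Sirt1 passed at 0.58 with upper-quartile normalization, 0.55 with at least 10 counts in every library and 0.70 without cisplatin 1 and 3, each making 2 members higher. Sirt5 lost its call with no expression filter (-0.64), in the first library set alone (-0.40) and without cisplatin 4 and 6 (-0.44). Sirt7 passed at -0.37 when the library set, itself drawn from these gene levels, was a term and at -0.37 in the first set alone. Leaving out 1 library at a time gave 0.42 to 0.66 for Sirt1 and -0.78 to -0.54 for Sirt5, with 1 to 2 members higher. Testing for a change past 1 on the log2 scale called 885 genes higher and 803 lower. The cause of these shifts was not tested, beyond the fewer libraries or other genes that some settings hold.

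Control and cisplatin share replicate numbers 1 and 3, but nothing says that equal numbers mark a pair, and the deviations of same-numbered libraries correlated at 0.249 and 0.279, inside the 0.148 to 0.355 of all pairs in the first set. With the replicate block Sirt7 passed at -0.36 and Sirt5 did not at -0.29, and the calls of the other members were the same. Only numbers 1 and 3 stand in both groups, so the treatment values of this fit rest on control 1 and 3 against cisplatin 1 and 3. Both of these cisplatin libraries are nearly without Y-linked counts.

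The lowest count of any sirtuin was 111, for Sirt5, and counting error was not separated from the spread between kidneys.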
